A study of Mus musculus with 38 samples.

Results

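The cortical collecting duct is the last tubule segment of the renal cortex, and its transcriptome in wild-type mice is described here from 12 RNA-seq libraries of 38 samples in the series. The members are the 12 WT columns of a table that also holds 12 libraries titled MT, a mutation of the protein kinase A target site S552 of β-catenin. The 12 libraries fall into 4 numbered units, WT1 to WT4, with 3 libraries each, and the mean of the 3 libraries is the value of a unit. Every value is given as TPM, transcripts per 1000000, which is scaled for transcript length and for the library total, so that levels of different genes can be set side by side. No contrast between conditions enters, and errors are SD over the 4 units unless stated otherwise.

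What the ducts had been exposed to cannot be settled from the labels. All 12 libraries are labelled as ducts microdissected by hand from kidneys of C57BL/6 mice that had received dDAVP, a vasopressin analog that acts on the V2 receptor, and the titles add 5 days. The name of the deposited table says the opposite, that no vasopressin was given, and the MT libraries carry the same genotype and treatment labels as the WT libraries. The word baseline is therefore not used here. The labels also do not say that a unit is 1 animal, so the spread between units may be between animals, between dissections or between preparations. In bulk tissue, fewer cells of a type and less RNA per cell cannot be told apart.

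The collecting duct epithelium is a mosaic. Principal cells take up sodium through the epithelial sodium channel ENaC and water through aquaporins, under aldosterone and vasopressin: vasopressin binds V2 receptors on the blood side, cAMP rises, and aquaporin-2 moves to the luminal membrane. Intercalated cells handle acid and base, type A secreting protons with a proton pump and returning bicarbonate to the blood through the exchanger AE1, and type B secreting bicarbonate through pendrin.

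The 6 genes used to check the identity of the segment were all present in every library. Aqp2, the vasopressin-regulated water channel (chr15:99579056-99584545 on GRCm38.p6, the build also called mm10), held the first rank of 55416 listed genes in the mean over units. Its unit means were 11231, 27628, 15454 and 14714 TPM in WT1 to WT4 (17257 ± 7155 TPM, n = 4). WT2 was the highest unit, the other 3 units ran from 11231 to 15454 TPM, and the 3 libraries of WT2 did not overlap the other 9. Aqp3, the water and glycerol channel of the basolateral membrane (chr4:41092724-41098183), stood at 3881, 5676, 3778 and 4218 TPM (4388 ± 879). Avpr2, the V2 receptor itself (chrX:73891765-73894428), stood at 721, 1463, 1035 and 911 TPM (1033 ± 315). For both genes WT2 was again the highest unit.

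The anion exchangers that mark the intercalated types were present together. Slc26a4, which encodes pendrin (chr12:31519814-31560055), reached 1901, 1230, 2024 and 1704 TPM (1715 ± 349, n = 4), and here WT2 was the lowest unit. Slc4a1, which encodes AE1 (chr11:102348820-102365281), reached 353, 679, 317 and 454 TPM (451 ± 163). WT2 was its highest unit. Within a unit, Slc26a4 exceeded Slc4a1 by a ratio of 1.81 to 6.39, with a mean ratio of 4.33 ± 2.00. Scnn1a, the α subunit of ENaC (chr6:125314271-125344943), varied little, with 414, 376, 401 and 396 TPM (397 ± 15.6).

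Promoters of 3 genes are shown because the same genes lie in open chromatin in the series' ATAC-seq, which maps accessible DNA. In the group of 3 saline ATAC-seq samples, the authors' table gives a promoter peak for Aqp2 at chr15:99578305-99579420 with a log2 mean signal of 9.06, above that of 86.4% of the 12507 genes that had one. Avpr2 had a promoter peak at chrX:73891220-73892351 with 7.94, and Atp6v1b1, the proton pump subunit of intercalated cells, one at chr6:83742753-83743207 with 8.52. Each run is the 250 bases before the start site used by RefSeq's promoter entry on GRCm38.p6, 5′ to 3′ on the strand of the gene, and all 3 lie within those peaks. For Avpr2, RefSeq's promoter entry uses a later start that lies inside the gene span given above, so its run and distances refer to that start. Capitals mark matches, on either strand, to a GATA motif (AGATAA), the TGACG core of the cAMP response element, a forkhead motif (TGTTTAC) and a TATA box (TATAAA).
Aqp2 promoter, chr15:99578806-99579055, + strand: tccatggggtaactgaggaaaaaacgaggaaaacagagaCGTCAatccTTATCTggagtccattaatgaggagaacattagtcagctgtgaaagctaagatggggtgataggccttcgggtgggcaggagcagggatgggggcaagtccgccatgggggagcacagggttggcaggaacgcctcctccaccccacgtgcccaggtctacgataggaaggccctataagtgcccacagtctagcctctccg
Avpr2 promoter, chrX:73891852-73892101, + strand: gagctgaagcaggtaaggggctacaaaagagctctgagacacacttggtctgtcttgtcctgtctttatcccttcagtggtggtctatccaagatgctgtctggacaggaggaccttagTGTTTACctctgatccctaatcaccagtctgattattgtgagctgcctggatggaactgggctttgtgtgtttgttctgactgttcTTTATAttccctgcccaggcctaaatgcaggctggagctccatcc
Atp6v1b1 promoter, chr6:83742767-83743016, + strand: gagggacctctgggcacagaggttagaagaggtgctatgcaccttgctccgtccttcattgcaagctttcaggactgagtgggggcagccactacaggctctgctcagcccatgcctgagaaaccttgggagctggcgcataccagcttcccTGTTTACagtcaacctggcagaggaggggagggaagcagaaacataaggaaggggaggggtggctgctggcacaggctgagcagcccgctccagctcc
The Aqp2 run holds TGACG on the other strand, 211 to 207 bases before the start, and AGATAA on the other strand at 202 to 197 bases. Of 32851 promoter windows of the same length, 17.8% held TGACG and 9.99% held AGATAA. Avpr2 and Atp6v1b1 each held TGTTTAC, at 131 to 125 and at 98 to 92 bases before the start, as did 3.17% of all windows. Avpr2 also held TATAAA on the other strand, at 45 to 40 bases, as did 12.4% of windows. A match to these letters is a description of the sequence and says nothing about binding. No entry was found for Slc4a1 and Scnn1a.

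The transcriptome of the segment is broad, with a steep top. A mean level of 1 TPM or more over the units was reached by 14805 genes, of which 8842 reached 10 TPM, 1833 reached 100 TPM and 122 reached 1000 TPM. The number at 1 TPM was 13960, 15134, 14464 and 15244 in the single units, and 11870 genes were at or above it in every library. The 100 highest genes held 27.04% ± 0.31 of all TPM, and Aqp2 alone held 1.73%, from 1.12% in WT1 to 2.76% in WT2. Spread between units depended on the level: the median coefficient of variation was 24.65% for genes of 1 to 10 TPM, 8.67% for 10 to 100 TPM and 6.50% for 100 to 1000 TPM. Libraries correlated on the log2(TPM + 1) scale at r = 0.945 to 0.970 within a unit and 0.925 to 0.968 between units. This is a description across genes, which are not independent replicates.

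Among the 30 highest named genes were the principal cell genes Aqp2, Fxyd4 (5855 ± 1793 TPM), Aqp3 and Hsd11b2 (2915 ± 203). Fxyd4 encodes a regulator of the sodium pump, and Hsd11b2 the enzyme that inactivates cortisol and corticosterone and so leaves the mineralocorticoid receptor to aldosterone. Cdh16, the kidney cadherin, stood at 3782 ± 656 TPM, and Pdzk1ip1 at 4884 ± 472. Several of the 30 encode proteins of oxidative phosphorylation. Atp5b, the β subunit of ATP synthase, reached 7362 ± 694 TPM, and Cox8a, a subunit of cytochrome c oxidase, 3845 ± 73.2. Uqcr11, of complex III, reached 3228 ± 180, and Slc25a5, the ADP/ATP exchanger of the inner mitochondrial membrane, 3211 ± 198. In glycolysis, Aldoa stood at 4418 ± 107 and Ldhb at 5822 ± 534. The nuclear RNA Malat1 held 8453 ± 1175 TPM, and Actb, cytoplasmic actin, 4829 ± 356. A predicted gene model held the second rank and is not named.

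Of 37 transcripts encoded by the mitochondrial genome, 9 had values above 0, and they summed to 3.02% ± 0.48 of all TPM. The highest was mt-Cytb at 8573, 6418, 9812 and 9110 TPM, lowest in WT2. The other 28, among them mt-Co2, mt-Atp6 and mt-Co3, are listed at 0 in all 12 libraries. Of these 28, 6 are mRNAs. Whether the listed 0 is a property of the estimate was not tested. If it is, the mitochondrial share is understated.

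**Figure D1:**
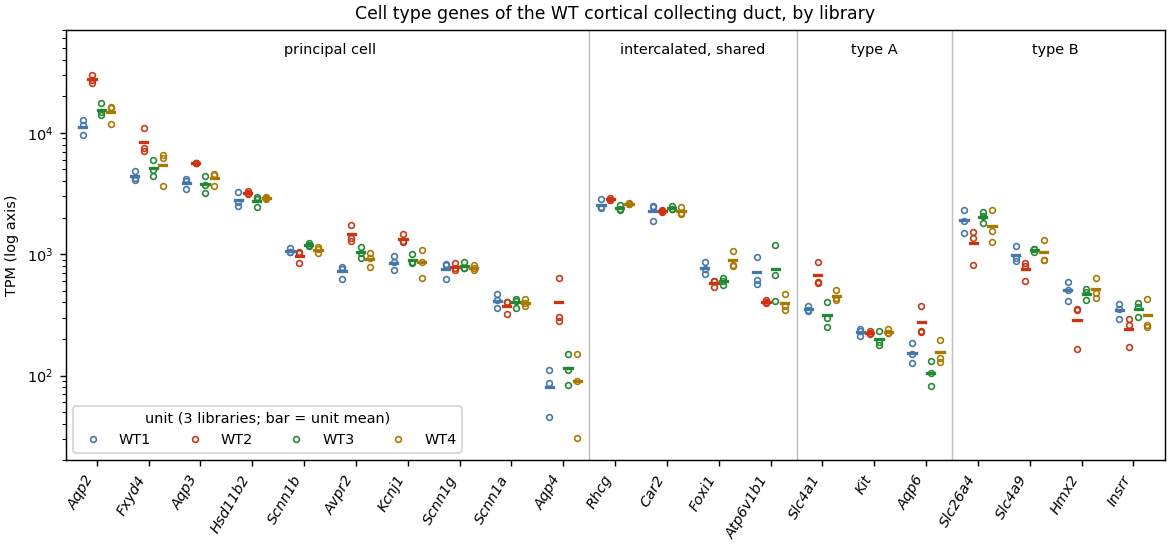
Levels of genes of principal cells and of shared, type A and type B intercalated cells in TPM on a log axis, with 1 open circle per library, 3 per unit, and a bar at each unit mean. The WT2 circles of Aqp2, Avpr2, Kcnj1, Aqp4, Slc4a1 and Aqp6 lie above those of the other units, while Scnn1a, Scnn1g, Car2 and Kit lie at about the same level in all 4.

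All 13 principal cell markers exceeded 10 TPM, from Elf5 (14.0 ± 10.2) upward, and together they held 3.57% ± 1.09 of TPM. Below Aqp2, Fxyd4, Aqp3 and Hsd11b2 came the β subunit of ENaC, Scnn1b (1080 ± 92.4 TPM), then Avpr2, then Kcnj1 (988 ± 232), the potassium secretory channel ROMK, and the γ subunit of ENaC, Scnn1g (778 ± 17.3). The unit ranges of Scnn1b, Avpr2 and Kcnj1 overlapped, so these 3 are not set apart. Scnn1a lay clearly below the other ENaC subunits: Scnn1b exceeded it by a ratio of 2.72 ± 0.19 and Scnn1g by 1.96 ± 0.11, and the unit ranges did not overlap. Npnt, an integrin ligand of the basement membrane, stood at 742 ± 266 TPM, and Gata3, a transcription factor, at 127 ± 15.6. Aqp4, the basolateral water channel of deeper collecting duct, was the most uneven, with 80.4, 406, 115 and 90.7 TPM (173 ± 156). WT2 held several times the level of every other unit.

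Transcripts of both intercalated types and of their common machinery were abundant. All 12 shared intercalated cell markers exceeded 100 TPM. The ammonia channel Rhcg stood at 2600 ± 175 TPM and its relative Rhbg at 866 ± 91.5. Car2, the cytosolic carbonic anhydrase that supplies protons and bicarbonate, held 2262, 2266, 2406 and 2256 TPM (2298 ± 72.3), almost the same in all 4 units. Car15 (2064 ± 262), a membrane-bound member of that enzyme family, overlapped Car2 in range. Car12 (1201 ± 220), also membrane-bound, lay below both without overlap, and Car5b, the next of the 16 carbonic anhydrases on the list, stood at 17.3 ± 4.49. Foxi1, the forkhead factor required for intercalated cells, stood at 709 ± 150 TPM.

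The type B list had a higher sum than the type A list in every unit, though single members did not all follow that order. The 6 type B markers summed to 5134, 3453, 5339 and 4776 TPM and the 6 type A markers to 957, 1538, 801 and 1075 TPM. WT2 was lowest in the first sum and highest in the second. After Slc26a4, the type B list held Spink8 (1109 ± 201 TPM), Slc4a9 (967 ± 149), a basolateral anion exchanger, and the homeobox factor Hmx2 (446 ± 106). It also held Insrr (313 ± 51.1), a receptor that responds to alkaline pH, and Oxgr1 (126 ± 16.4), the α-ketoglutarate receptor. After Slc4a1, the type A list held the receptor kinase Kit (221 ± 14.8), Aqp6 (174 ± 73.7), the adhesion receptor Adgrf5 (164 ± 44.5) and the transcription factor Dmrt2 (70.3 ± 18.8). Slc26a7, a chloride and bicarbonate exchanger, was low at 13.5 ± 12.6.

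The vacuolar proton pump was represented by 23 of 24 subunit genes at 1 TPM or more, 18 of them at 100 TPM or more. Broadly used subunits led: Atp6v1f at 2144 ± 71.1 TPM, Atp6v0b at 2006 ± 118 and Atp6v0e at 1490 ± 61.0. Of the subunits typical of intercalated cells, Atp6v1g3 stood at 643 ± 57.0, Atp6v1c2 at 557 ± 56.7 and Atp6v0d2 at 500 ± 44.4, while Atp6v0a4 was lower at 146 TPM, with units from 123 to 170. Atp6v1b1 stood at 709, 405, 753 and 397 TPM (566 ± 192), with WT1 and WT3 high and WT2 and WT4 low. It exceeded its broadly expressed counterpart Atp6v1b2 by a ratio of 3.56 ± 0.94. For potassium, the gastric-type proton potassium pump Atp4a stood at 426 ± 79.6 TPM and the colonic-type Atp12a at 7.92 ± 3.36. The unit ranges of Atp4a and Atp12a were far apart.

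Sodium transport genes ranged from steady to variable between units. The 13 genes of the sodium channel and mineralocorticoid list summed to 6427 ± 147 TPM, and all 13 exceeded 10 TPM. Their median coefficient of variation was 8.00%. Over all genes it was 8.67% at 10 to 100 TPM and 6.50% at 100 to 1000 TPM. Nr3c2, the mineralocorticoid receptor, held 87.0, 84.4, 85.4 and 85.0 TPM (85.5 ± 1.12), which is the same level in all 4 units. It exceeded the glucocorticoid receptor Nr3c1 by a ratio of 5.26 ± 0.36, and Hsd11b2 exceeded it by 34.1 ± 2.71. Nedd4l, the ubiquitin ligase that removes ENaC, stood at 322 ± 6.49 TPM. Sgk1, the aldosterone- and glucocorticoid-induced kinase that restrains Nedd4l, varied more, with 622, 409, 343 and 354 TPM. Its highest unit was WT1. The protease Prss8 stood at 182 ± 19.0 and the kinase gene Wnk4 at 59.1 ± 9.94. Of the sodium pump, the subunit Atp1b1 held 1179 ± 72.9 TPM.

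**Figure D2:**
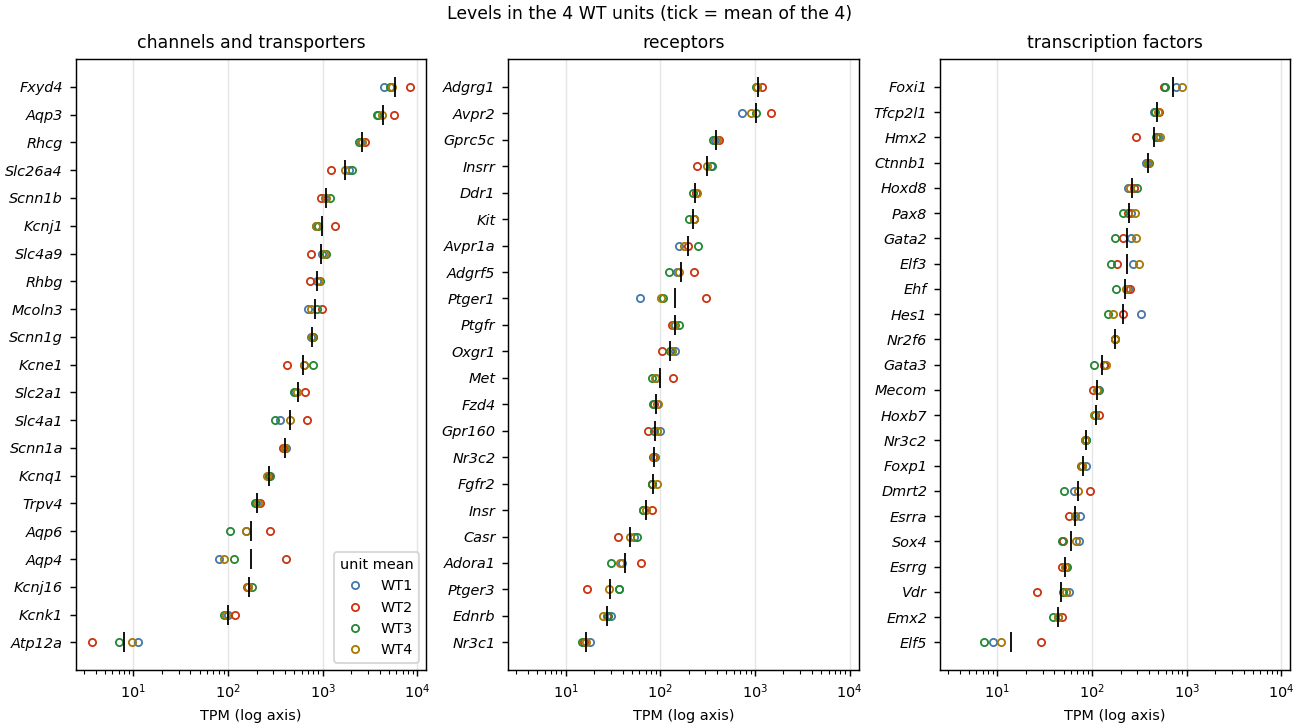
Unit means in TPM on a log axis for channels and transporters, receptors and transcription factors named in the text, with 1 circle per unit and a black tick at the mean of the 4. Most genes have their 4 circles close together, while those of Aqp4, Ptger1 and Elf5 are spread over several times their lowest value.

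Only 6 of 12 aquaporin genes reached 1 TPM. Below Aqp2 and Aqp3 lay Aqp6 and Aqp4, which overlapped each other, then Aqp11 (11.5 ± 3.67 TPM), an intracellular channel, and Aqp1 (1.92 ± 1.84), the channel of proximal tubule and thin limb. Among 96 potassium channel genes, 26 reached 1 TPM and 5 reached 100 TPM. Kcnj1 was followed by Kcne1 (619 ± 154), Kcnq1 (269 ± 6.50), Kcnj16 (166 ± 9.35) and Kcnk1 (101 ± 12.2), with no overlap between neighbours in that order. Kcne1 encodes the accessory subunit of Kcnq1, and Kcnj16 a partner of inward rectifiers in the basolateral membrane. Among the other cation channels, the lysosomal Mcoln3 held 703, 992, 876 and 756 TPM (832 ± 129), about the level of Scnn1g. Trpv4, an osmotically and flow-sensitive calcium channel, stood at 204 ± 10.7.

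Of 24 chloride channel genes, 19 reached 1 TPM. Clic1 stood at 201 ± 7.41 TPM, Bsnd, or barttin, an accessory subunit of chloride channels, at 196 ± 24.5, and the exchanger Clcn4 at 139 ± 2.51. The unit ranges of Clic1 and Bsnd overlapped.

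Of 387 solute carrier genes, 252 reached 1 TPM and 36 reached 100 TPM. Mitochondrial carriers were frequent among the highest: besides Slc25a5 these were the phosphate carrier Slc25a3 (1473 ± 149 TPM), Slc25a39 (664 ± 64.6), Slc25a4 (622 ± 40.8) and the oxoglutarate carrier Slc25a11 (501 ± 31.1). Of the plasma membrane carriers, Slc26a4 and Slc4a9 were followed by the glucose transporter Slc2a1 (552 ± 72.2), Slc4a1, and the fatty acid transport protein Slc27a1 (312 ± 12.9). Slc16a5, a monocarboxylate carrier, stood at 208 ± 50.8, and Slc3a2, the heavy chain of amino acid exchangers, at 189 ± 40.6.

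Tight junction claudins were dominated by Cldn8, which seals the collecting duct against sodium back-leak, at 717, 1095, 841 and 670 TPM (831 ± 190). Cldn7 (454 ± 46.0), Cldn4 (145 ± 60.1) and Cldn3 (119 ± 23.4) followed, and 13 of 26 claudins reached 1 TPM. The order from Cldn8 to Cldn7 to Cldn4 held without overlap of unit ranges. Cldn10, Cldn19 and Cldn16, claudins of the thick ascending limb, were at 14.5 ± 11.7, 9.12 ± 5.53 and 7.60 ± 6.08 TPM.

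Of 107 G protein-coupled receptor genes, 63 reached 1 TPM, and Adgrg1 (1078 ± 68.2 TPM), an adhesion receptor, and Avpr2 shared the top, with overlapping ranges. Gprc5c came next at 389 ± 25.2. Avpr1a, the V1a vasopressin receptor, stood at 156, 197, 252 and 178 TPM (196 ± 40.8), so that Avpr2 exceeded it by a ratio of 5.31 ± 1.46. Prostanoid receptors were prominent: Ptgfr, for prostaglandin F2α, held 143 ± 9.61 TPM, and Ptger1, for prostaglandin E2, held 61.6, 303, 106 and 103 TPM. Ptger1 was uneven, highest in WT2 and lowest in WT1. Casr, the calcium-sensing receptor, stood at 48.2 ± 9.01, Adora1 at 42.2 ± 13.7 and Ptger3 at 29.6 ± 9.24. The endothelin-B receptor Ednrb stood at 27.3 ± 2.17.

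Genes on the ligand side of those receptors were present in the same ducts. Ptgs1, cyclooxygenase-1, stood at 286 ± 50.7 TPM and Ptges, the prostaglandin E2 synthase, at 260 ± 44.5. Edn3, an endothelin, held 104 ± 3.73. In the list of receptors and ligands that oppose vasopressin, 20 of 30 genes reached 1 TPM and 4 reached 100 TPM.

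Downstream of the V2 receptor, 28 of 38 genes of the vasopressin and cAMP list reached 1 TPM. Gnas, the stimulatory G protein, held 922 ± 29.4 TPM and Prkar1a, a regulatory subunit of protein kinase A, 372 ± 20.0. The catalytic subunits Prkaca (61.2 ± 2.40) and Prkacb (45.4 ± 2.47) were lower. Of the adenylyl cyclases, Adcy6 stood at 27.2 ± 2.56 and exceeded Adcy5 by a ratio of 2.95 ± 0.57. Among phosphodiesterases, Pde1a stood at 333 ± 27.3, far above Pde3b (43.0 ± 0.856) and Pde4c (41.5 ± 5.68). Receptor and G protein were thus listed at levels many times those of the cyclases in the same units.

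Receptor tyrosine kinases numbered 27 of 32 at 1 TPM or more. Insrr led, followed by the collagen receptor Ddr1 (235 ± 10.7 TPM) and Kit. Ddr1 overlapped both of its neighbours in range, and Insrr and Kit did not overlap each other. Met, the hepatocyte growth factor receptor, held 98.9 ± 24.6, Fgfr2 84.5 ± 5.78 and the insulin receptor Insr 71.1 ± 7.93. In the Notch pathway, the target Hes1 stood at 213 ± 81.1, the ligand Dll1 at 67.5 ± 17.0, Jag1 at 43.6 ± 7.68 and the receptor Notch2 at 24.2 ± 3.68.

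Of 55 transcription factors on the collecting duct list, 45 reached 1 TPM and 12 reached 100 TPM. Foxi1 was first, above Tfcp2l1 (481 ± 28.9 TPM), a factor of both cell types, and their ranges did not overlap. Hmx2 and then Ctnnb1 came next. Ctnnb1, β-catenin, held 372, 385, 400 and 392 TPM (387 ± 11.9), an even level. Pax8 (248 ± 31.0), Gata2 (235 ± 51.1), Elf3 (232 ± 73.0), Ehf (225 ± 33.4) and Hes1 formed a group with overlapping ranges. Mecom (112 ± 6.90) was close to Gata3. Among homeobox genes outside that list, Hoxd8 stood at 265 ± 24.3 and Hoxb7 at 109 ± 6.75. The orphan nuclear receptor Nr2f6 held 174 ± 1.14 TPM, and the vitamin D receptor Vdr 57.1, 26.1, 49.1 and 53.3, lowest in WT2.

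In the chromatin data, genes expressed in the ducts more often had an open promoter. The authors' table gave a promoter peak for 13.0% of protein-coding genes under 0.1 TPM, 41.3% of those from 0.1 to 1 TPM, 66.5% of those from 1 to 10 TPM and 74.1% of those from 10 to 100 TPM. Above that the share levelled at 77.6% for 100 to 1000 TPM and 76.6% for the 111 genes at 1000 TPM or more. The median log2 signal of those peaks went from 3.49 in the lowest class to 6.87 at 1 to 10 TPM and 8.28 in the highest. The ATAC-seq came from other samples, given saline, so this compares libraries of separate preparations and is a description across genes. Tfcp2l1 (9.34), Aqp3 (9.33) and Scnn1b (9.29) had the highest promoter signal of the 23 genes with a promoter peak among 29 looked up. The 6 without one included Slc26a4, Slc4a1 and Foxi1, which were abundant as transcripts. Hsd11b2 had 5.73, above that of 41.7% of genes with a promoter peak, and its transcript held 2915 TPM. Kit, at 221 TPM, had 2.86.

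Transcripts of other nephron segments and of blood were uneven between libraries, and some libraries stand apart. The 5 thick ascending limb markers, led by Umod (uromodulin), summed to 14.4 to 61.7 TPM in 9 libraries, to 837 TPM in library 2 of WT3, to 1589 TPM in library 1 of WT4 and to 3187 TPM in library 1 of WT1. The 12 proximal tubule markers were graded, from a sum of 20.8 TPM in library 2 of WT2 to 6241 TPM in library 1 of WT3, where Kap reached 3840 TPM. They summed to 2010.5 TPM in library 2 of WT3, 1293 in library 3 of WT4 and 1105 in library 1 of WT4. The remaining libraries held up to 407 TPM. The 5 erythrocyte markers summed to 24918 TPM in library 2 of WT3 and to between 1.48 and 395 TPM in the other 11. Connecting tubule markers were present throughout, with sums of 2624, 471, 1832 and 1702 TPM. S100g stood at 1737, 247, 1256 and 630 TPM, and Calb1 at 361, 163, 345 and 271 TPM. WT2 was lowest for both of these calcium-binding proteins.

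Other cell types were at low levels. The immune list summed to 404 ± 250 TPM, mostly Cd74 (264 ± 164), and the endothelial list to 180 ± 57.4 TPM, mostly Plvap (113 ± 46.1). The fibroblast and smooth muscle list summed to 68.9 ± 19.2 TPM, of which Dcn held 63.5 ± 19.4 and Acta2 0.641 ± 0.403. Defining genes of the distal convoluted tubule and urothelium were near 0, with Slc12a3 at 1.24 ± 1.63 TPM and Upk1b at 0.0267 ± 0.0319, and the podocyte list summed to 2.32 ± 0.447 TPM. Y-linked transcripts such as Ddx3y (22.4 ± 2.75) were present in all 12 libraries, and Xist stood at 0.0842 ± 0.0740 TPM.

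**Figure D3:**
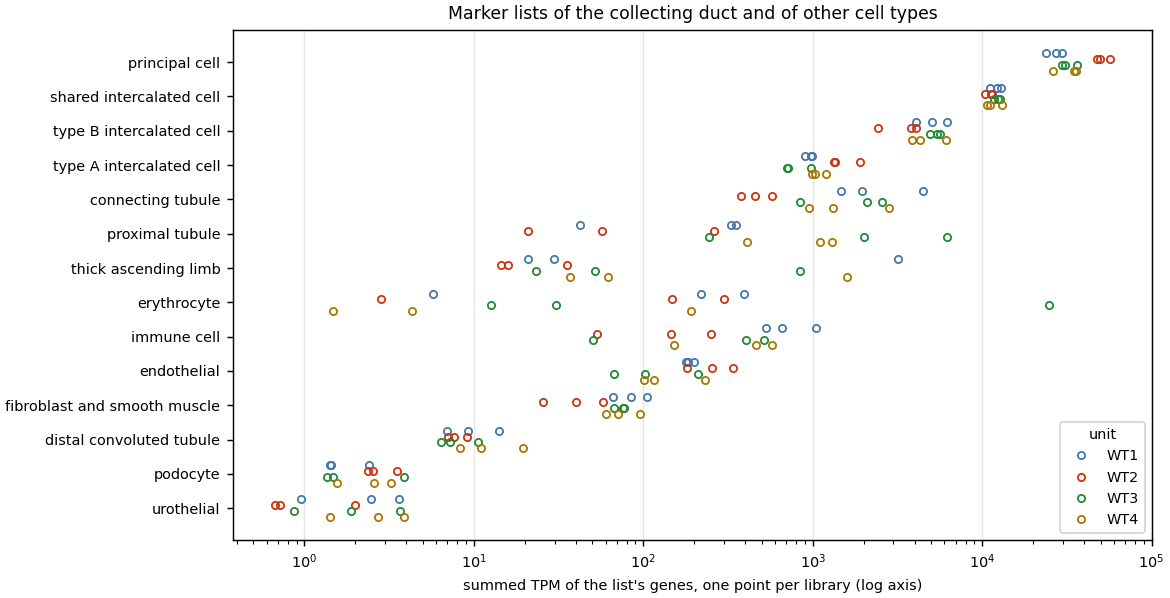
Summed TPM of each marker list on a log axis, with 1 circle per library coloured by unit. The shared intercalated cell list sits in a narrow band, while the proximal tubule list runs from 20.8 to 6241 TPM and 1 library of WT3 holds 24918 TPM of erythrocyte markers.

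Differences between the units were tested against the spread of the 3 libraries within a unit with limma on log2(TPM + 1) for the 14805 genes at 1 TPM or more. The p-values therefore measure units against libraries, which may be repeats of 1 preparation. At an adjusted p under 0.05, 235 genes differed among the 4 units, 1.59% of those tested, and 3240 genes had an unadjusted p under 0.05. Of the 6 marker genes, Aqp2 (adjusted p = 0.00931), Avpr2 (adjusted p = 0.0212) and Slc4a1 (adjusted p = 0.0338) were among them. Aqp3 (adjusted p = 0.0663), Slc26a4 (adjusted p = 0.24) and Scnn1a (adjusted p = 0.816) were not. Of the 235, 86 had their highest and 76 their lowest value in WT2. The same counts were 51 and 59 in WT1, 21 and 84 in WT3, and 77 and 16 in WT4. Without WT2, 29 genes differed, and the adjusted p in limma was 0.378 for Aqp2, 0.243 for Avpr2 and 0.322 for Slc4a1. Avpr2 also missed the threshold without library 2 (adjusted p = 0.0725) or 3 of WT2 (adjusted p = 0.0576) and without WT1 (adjusted p = 0.0769). Slc4a1 missed it when any of 9 single libraries was left out, with adjusted p in limma from 0.0502 without library 1 of WT4 to 0.086 without library 2 of WT3.

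The count of 235 moved by more than 1.5 times without any of 8 single libraries. It was 76 without library 2 of WT1, 107, 51 and 84 without library 1, 2 or 3 of WT2, 81 and 89 without library 1 or 2 of WT3, and 133 and 95 without library 1 or 3 of WT4. Without whole units it was 138 without WT1, 79 without WT3 and 231 without WT4. Set beside the 1.59% over all genes, 8 of 252 solute carriers and 1 of 38 other cation channels passed. The cation channel was Mcoln3 (adjusted p = 0.0239). Of 13 claudins, Cldn8 (adjusted p = 0.049) and Cldn3 (adjusted p = 0.0262) passed, and of 28 vasopressin and cAMP genes, Avpr2 and Avpr1a (adjusted p = 0.0463) did. With each of the 12 libraries left out in turn, Mcoln3 missed the threshold in 5 fits, Cldn3 in 6, Avpr1a in 10 and Cldn8 in 11.

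Several principal cell and type A genes were higher in WT2 than in the mean of the other units, a comparison added after the levels had been seen. In limma, 402 genes were higher in WT2 (2.72% of those tested) and 260 were lower (1.76%). Against that background, 8 of 13 principal cell markers and 5 of 6 type A markers were higher. The planned F test over the 4 units called fewer, 2 of 13 principal cell markers and 1 of 6 type A markers, against 1.59% of all genes tested. Aqp2 was higher by 1.02 on the log2 scale (SE 0.12, adjusted p = 0.00595), Aqp4 by 2.13 (SE 0.43, adjusted p = 0.0252) and Kcnj1 by 0.63 (SE 0.14, adjusted p = 0.0306). The 3 ENaC subunits and Hsd11b2 were not: Scnn1b had -0.21 (SE 0.07, adjusted p = 0.11) and Hsd11b2 0.19 (SE 0.08, adjusted p = 0.203). Of the type A genes, Slc26a7 was higher by 1.87 (SE 0.36, adjusted p = 0.0219) and Aqp6 by 1.01 (SE 0.19, adjusted p = 0.0214), while Kit had 0.05 (SE 0.08, adjusted p = 0.728). With each of the 12 libraries left out in turn, Aqp2 passed in all 12 fits, with adjusted p in limma up to 0.0496. Aqp4 missed the threshold in 3 fits, each without a WT2 library, Kcnj1 in 6, and Aqp6 and Slc26a7 in 2, without library 2 or 3 of WT2.

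Without a test, all 3 WT2 libraries lay above the other 9 for 8 principal cell markers and 5 type A markers, where 4.28% of all genes did so. They lay below the other 9 for Slc4a9, Hmx2, S100g, Klk1 and Calb1, where 2.38% of all genes did so. The tested counts of 402 and 260 rest on few libraries: without library 2 of WT2, 4 genes were higher and 7 lower, and 1 principal cell marker and no type A marker passed. Without library 3 of WT2, 5 were higher and 9 lower, and without library 1 of WT1 and libraries 1 and 2 of WT3 together, 4 were higher and 21 lower, with no principal cell or type A marker among them. Leaving out library 2 of WT1 left 232 higher and 161 lower, library 3 of WT1 265 higher, library 1 of WT2 235 and 141, library 1 of WT3 212 and 155, and library 2 of WT3 178 and 138. The median over all genes was 0.03 on the log2 scale.

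Other genes were lower in WT2. Fxyd2, the γ subunit of the sodium pump of upstream segments, held 1142, 342, 1289 and 1154 TPM and was lower in WT2, with a log2 difference of -1.88 (SE 0.24, adjusted p = 0.00799). It passed in all 12 fits with 1 library left out, with adjusted p in limma from 0.0074 to 0.0217. Of the type B markers, Hmx2 was lower at -0.85 (SE 0.21, adjusted p = 0.0478), but missed the threshold in 10 of those fits and passed only without library 1 of WT1 or library 1 of WT4. The other 5 type B markers did not pass, with Slc26a4 at -0.63 (SE 0.21, adjusted p = 0.115). Of the connecting tubule markers, Calb1 was lower at -1.05 (SE 0.23, adjusted p = 0.0302), and missed the threshold without library 2 of WT1, library 2 or 3 of WT2, or library 1 or 2 of WT3. Of the 9 mitochondrial transcripts, 5 were lower, against 1.76% of all genes tested. Among these 5, mt-Cytb stood at -0.53 (SE 0.11, adjusted p = 0.0282 in limma). It missed the threshold without library 2 or 3 of WT2 or library 1 or 2 of WT3. The summed thick ascending limb markers of WT2 were 21.9 TPM against 304 to 1079 TPM in the other units, but those sums rest on library 1 of WT1 (3187 TPM), library 2 of WT3 (837) and library 1 of WT4 (1589). The other 6 libraries of those units held 21.0 to 61.7 TPM, and the WT2 libraries 14.4 to 35.4 TPM. The proximal tubule markers summed to 113 TPM in WT2 against 242 to 2832 TPM, and library 3 of WT2, at 261 TPM, lay above the mean of WT1. What part these sums have in the differences was not tested.

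**Figure D4:**
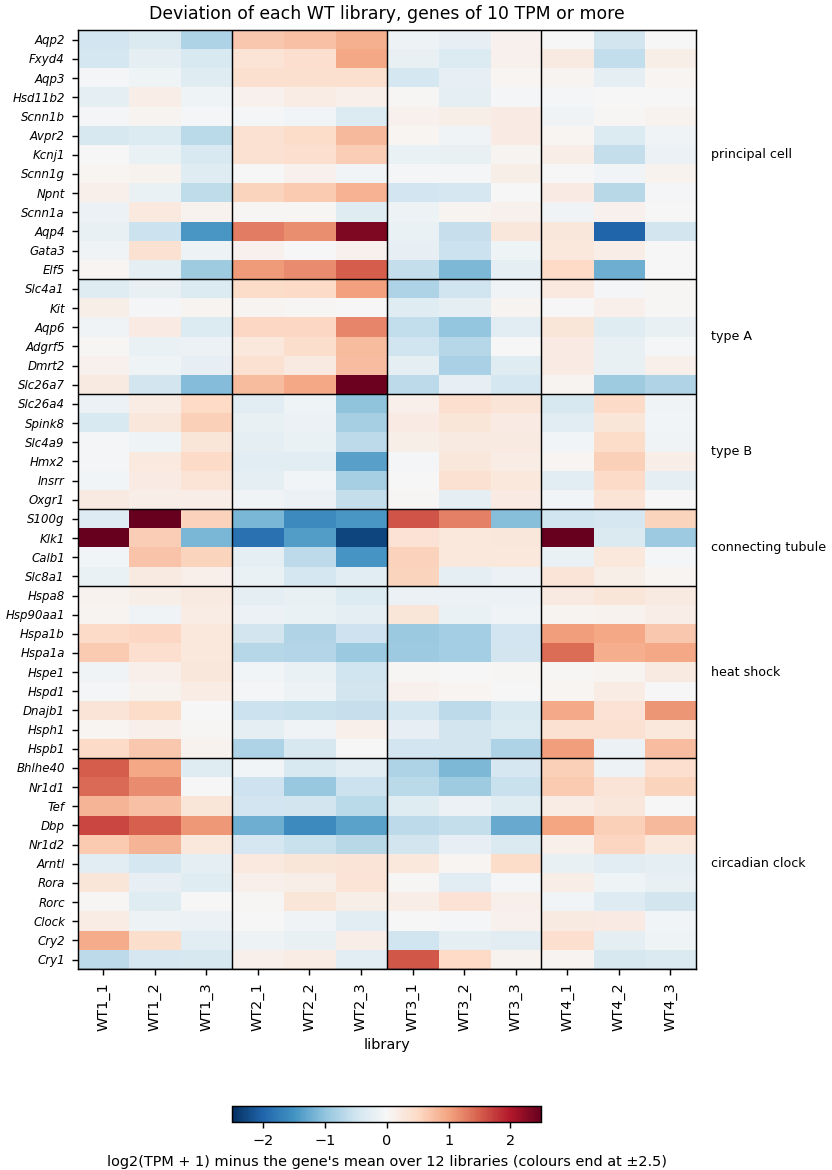
Deviation of each library from the gene's mean over 12 libraries, in log2(TPM + 1), for marker, heat shock and clock genes of 10 TPM or more, with black lines between units and between lists. The 3 WT2 columns are red for Aqp2, Avpr2, Aqp4 and the type A genes except Kit and blue for S100g, Klk1 and Calb1, and the Dbp line is red in WT1 and WT4 and blue in WT2 and WT3.

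Fewer genes set WT1, WT3 or WT4 apart from the mean of the other units. In limma, WT1 was higher than the mean of the others for 10 genes (0.0675%) and lower for 2 (0.0135%). WT3 was higher for 4 (0.027%) and lower for 33 (0.223%), and WT4 was higher for 25 (0.169%) and lower for 1 (0.00675%). Of the 45 collecting duct transcription factors tested, 3 differed between units, against the 1.59% of all genes: Foxi1 at 767, 579, 596 and 895 TPM (adjusted p = 0.0446), Sox4 at 72.6, 49.8, 48.5 and 68.3 TPM (adjusted p = 0.0212) and Pax2 at 6.54, 11.7, 6.96 and 7.31 TPM (adjusted p = 0.0491). WT1 and WT4 were the higher pair for Foxi1 and Sox4, and WT2 was the highest for Pax2. With 1 library left out, Sox4 missed the threshold in 4 of 12 fits, Foxi1 in 9 and Pax2 in 11.

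Several clock-linked genes were higher in WT1 and WT4 than in WT2 and WT3. Of 18 circadian genes tested, 6 differed between units, against 1.59% of all genes tested. Dbp, a clock output factor, held 91.8, 12.2, 18.6 and 59.0 TPM (limma adjusted p = 0.000272), Nr1d1, the clock repressor REV-ERBα, held 187, 59.4, 57.4 and 135 TPM (adjusted p = 0.033), and Tef held 74.3, 32.2, 39.2 and 52.6 TPM (adjusted p = 0.00931). For all 3, every unit mean of WT1 and WT4 was above those of WT2 and WT3. Arntl, the clock activator BMAL1, had the opposite order, with 22.6, 34.7, 34.1 and 23.9 TPM (adjusted p = 0.025). Dbp was higher in WT1 than in the other units by 1.89 (SE 0.16, adjusted p = 0.000854). With 1 library left out, Dbp and Tef passed in all 12 fits, while Nr1d1 missed the threshold in 8 and Arntl in 6. The labels used here give no hour of collection.

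Some heat shock genes also had higher unit means in WT1 and WT4 than in WT2 and WT3. Of 9 heat shock genes, 5 differed between units, against 1.59% of all genes tested. Hspa1b held 193, 96.2, 85.8 and 270 TPM (limma adjusted p = 0.000642) and Hspa1a 150, 63.0, 66.0 and 237 TPM (adjusted p = 0.000633). These are nearly identical neighbouring genes, and how the reads were split between them is uncertain. Hspa8, the constitutive member, held 865, 652, 701 and 921 TPM (adjusted p = 0.00682). Hspa1a, Hspa1b and Hspa8 passed in all 12 fits with 1 library left out. Of 17 immediate early genes tested, 4 differed, against 1.59% of all genes tested. The sum of the immediate early list did not separate the units by library. It was 3840 TPM in library 3 of WT1 and 4822 in library 2 of WT4, less than the 6054 in library 1 of WT2. Jun held 672, 248, 246 and 659 TPM (adjusted p = 0.0463) and Atf3 held 104, 7.59, 29.5 and 182 TPM (adjusted p = 0.0117). With 1 library left out, Jun missed the threshold in 10 of 12 fits and Atf3 in 1, without library 2 of WT2. Fos was the most abundant at 2219, 1111, 649 and 1785 TPM, but its libraries within WT1 ran from 641 to 3616 TPM and it did not pass (adjusted p = 0.255).

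The smallest p-values belonged to Tmem254a, Dbp, Hspa1a, Hspa1b, Ajuba, Tnfrsf12a, Cdk5rap1, Usp2, Smim1 and Mcl1. Tmem254a held 278, 680, 326 and 664 TPM (limma adjusted p = 4.43e-05), but it has near-identical copies and its value is uncertain. Usp2, a clock-linked deubiquitinase, held 119, 33.4, 50.5 and 88.8 TPM (adjusted p = 0.00268), and Tnfrsf12a, a cytokine receptor, 120, 42.6, 60.9 and 173 TPM (adjusted p = 0.00268). Both were highest in WT1 or WT4. Cdk5rap1 was lowest in WT3, with 32.6, 37.4, 14.2 and 39.2 TPM (adjusted p = 0.00268), and without WT3 its adjusted p in limma was 0.539. Smim1 was highest in WT2, with 130, 217, 139 and 143 TPM (adjusted p = 0.00268), and without WT2 its adjusted p was 0.66. Of the 235 genes that differed, 13 were predicted models.

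At the other end, some genes of 100 TPM or more were nearly constant. Hnrnpm, a splicing factor, stood at 141 ± 0.429 TPM and Clptm1 at 214 ± 1.14. Wfdc2, a secreted protease inhibitor, stood at 938, 925, 940 and 939 TPM, and Cct5, a chaperonin subunit, at 200 ± 1.59. Chchd7, Nr2f6, Pdrg1, Tmem256 and Cttn were also among those with the lowest coefficient of variation. They were chosen for the lowest coefficient of variation among 1802 genes of 100 TPM or more with a gene name. Their even unit means follow from that choice.

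**Figure D5:**
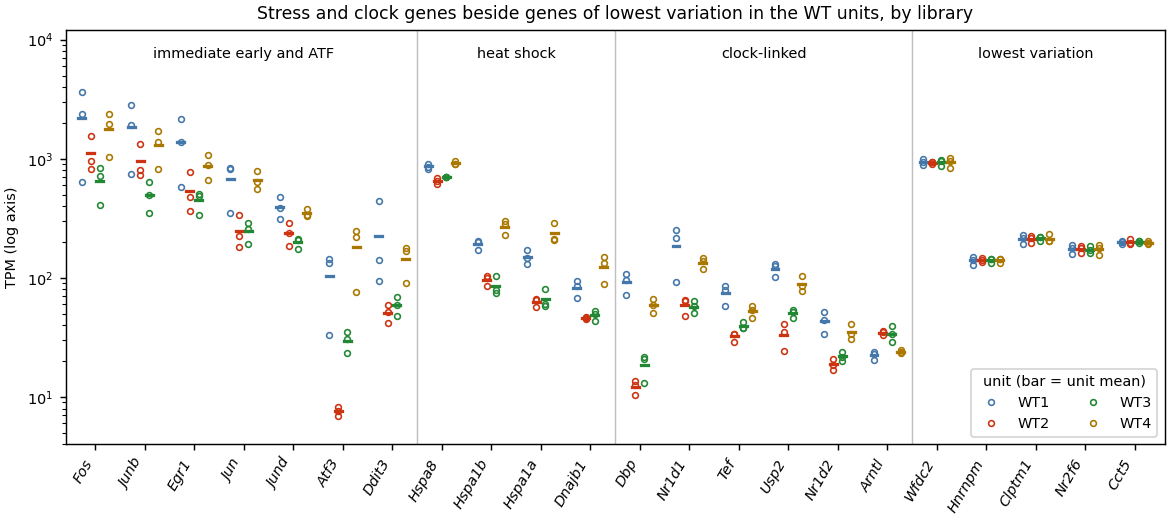
TPM on a log axis of immediate early, heat shock and clock-linked genes and of 5 genes of lowest variation, with 1 circle per library and a bar at each unit mean. For Dbp, Tef, Usp2 and Hspa1a the WT1 and WT4 circles lie above those of WT2 and WT3, and for Arntl they lie below.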

How the data were processed

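The 12 WT libraries came from microdissected cortical collecting ducts, made with SMARTer V4 and Nextera XT per the labels' protocols. STAR, RSEM and the build mm10 are named in the submitters' processing notes, with no version for either tool. The deposited table gives TPM per gene and library. TPM keeps no depth, so the depth of each library is unknown and no counting interval can be given. The ATAC-seq peak table gives the authors' log2 mean signal per group, made from 3 saline samples, and was used to describe promoters only. Columns of per-sample values without a matching label numbered 0.

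Library values were averaged within a unit, and SD and coefficient of variation are over the 4 units. Genes with a mean of 1 TPM or more were tested on log2(TPM + 1) with limma 3.58.1 (R 4.3.3), a moderated F test over the 4 units with a mean-variance trend and Benjamini-Hochberg adjustment at 0.05. The libraries of a unit served as replicates, and nothing in the labels says that they came from separate animals. Contrasts of 1 unit with the mean of the others, and counts of genes whose WT2 libraries do not overlap the rest, were added after the levels had been seen, as were fits of named genes with 1 library left out. The script was checked on simulated data. Tables were handled with pandas 2.3.3 and numpy 2.4.6, and plots with matplotlib 3.10.9.

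Genes are named by a rule: the 6 markers, the 30 highest genes, up to 10 of the highest of each list (20 for solute carriers and collecting duct transcription factors), the 10 smallest p-values, and the 10 lowest coefficients of variation at 100 TPM or more. Predicted models are counted and not named, and some genes that the rule selects are not reported here. Outside this rule, and chosen after their values were seen, are Acta2, Adcy5, Adcy6, Atf3, Atp6v1b2, Nr3c1, Pax2, Upk1b, Xist and mitochondrial transcripts listed at 0. The members and lists were chosen with earlier results of these data known. Positions and promoters come from RefSeq on GRCm38.p6, which had 1496 of 1533 listed genes. Alternatives were other pseudocounts, filters, scalings, variance settings, libraries or units left out, and library number as a block.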

Additional observations from a re-analysis of the deposited data

Results flagged for a closer look

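In 22 of 209 gene levels and list sums examined, 1 of the 4 units stood apart from the other 3 by Dixon's test. For values not chosen beforehand, chance gives this for about 1 in 20. Some genes here, such as Smim1 and Wfdc2, were named for differing or for varying little between units. No excess over chance can therefore be read from the 22. WT2 was the outlying unit in 14 of the 22, which are not independent of the differences already described for it.

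WT2 was highest for 10 genes. Among principal cell and type A genes these were Aqp4 (406 TPM, against 80.4 to 115 in the other units), Kcnj1 (1334), Npnt (1138), Elf5 (29.1) and Slc26a7 (32.3). The others were the carbonic anhydrase Car5b (24.0), the transcription factor Pax2 (11.7), the receptor Met (136), cyclooxygenase-1 or Ptgs1 (362) and Smim1 (217). WT2 was lowest for Fxyd2 (342 TPM, against 1142 to 1289), the proton potassium pump Atp4a (308), the mitochondrial carrier Slc25a5 (2918) and Wfdc2 (925, against 938 to 940).

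WT1 was highest for the sodium pump subunit Atp1b1 (1288 TPM). WT3 was highest for Car2 (2406) and for the summed erythrocyte markers (8320 TPM, against 65.6 to 207), a sum that comes from 1 library. It was lowest for the adenylyl cyclase Adcy6 (23.4) and for Kit (199). WT4 was highest for the Notch ligand Dll1 (92.8), Fgfr2 (93.1) and the distal convoluted tubule cotransporter Slc12a3 (3.67).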

How the results depend on the processing

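The count of genes differing between units was the least stable value. In place of 235 it was 96 with every gene above 0 tested, 406 with genes of 10 TPM or more, 50 without the variance trend, 51 to 342 with 1 library left out, 29 to 231 with 1 unit left out and 33 without library 1 of WT1 and libraries 1 and 2 of WT3, a set chosen after seeing the data. The 402 genes higher in WT2 ranged from 4 to 472 with 1 library left out and the 260 lower genes from 7 to 296, and without those 3 libraries they were 4 and 21. The cause was not tested, apart from fewer samples and another number of genes tested. With library number as a replicate block 176 genes differed, of which 143 were shared. Over all genes tested, deviations of same-numbered libraries correlated at -0.12 to 0.13 (median -0.01). Libraries of other numbers correlated at -0.15 to 0.18. A batch that touches only some genes could be missed by this measure, and none was tested for. The share of TPM in the 100 highest genes was 25.8% without mitochondrial transcripts, and its other 6 alternatives moved it by less than 1 SD. The count of 14805 genes at 1 TPM ran from 11870, with every library at the threshold, to 15070, without WT1, all within 1.5 times. Of 268 recomputed levels, 265 moved by less than 1 SD. Leaving out 1 of 4 units cannot move a mean by 1 SD. For the levels and for the share, those alternatives could therefore not differ. Of 400 recomputed calls on named genes, 373 stayed on their side of the threshold, 24 lost it and 3 gained it, all 3 for Aqp3 (adjusted p = 0.027 to 0.0416 in limma). Of the 16 genes behind these calls, 10 were picked for the smallest p-values in these same data. The pooled count is therefore no measure of stability. Of the markers that passed in the main fit, Slc4a1 passed in 11 of 25 alternatives, Avpr2 in 19 and Aqp2 in 23. Quantile normalization, which gives every library the same set of values, gave Aqp2 an adjusted p of 0.799 in limma. This scaling fixes the values that the highest ranks can take, and Aqp2 held the first rank in the mean over units. That fit can therefore say little about a difference in Aqp2, and the reason for its value was not tested. Depth is unknown, so low genes carry a counting error that cannot be given.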
